A study of Mus musculus with 14 samples.

Results

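The genes described here are 39 lysosomal hydrolases, activator and carrier proteins, and lysosomal membrane proteins, with the cathepsins left out. They were taken by gene symbol from an expected-count table of 23420 symbols; all 39 were found, and all 39 were among the 14217 genes with enough counts to be tested. They were measured by Smart-seq2, a full-length RNA sequencing method, in 14 libraries of 150 sorted lymph-node dendritic cells (DCs) each. The libraries come from LIPSTIC, a method that marks cell contacts: sortase A on a T cell couples a biotin-tagged peptide to a pentaglycine (G5) tag on CD40 of the DC it touches.

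All mice were C57BL/6. The biotin-positive (6 libraries) and biotin-negative (6 libraries) DCs are endogenous cells of recipients labelled G5-Cd40+/+ in the sample annotation and Cd40G5/G5 in the protocol. These recipients were given 500000 Cd40G5/G5 DCs per footpad, pulsed with the peptide OVA323-339, and after 18 hours 300000 CD4+ T cells of the genotype CD40lgSrtA/Y CD4-Cre OT-II by the intravenous route, so both groups share the tag, the transferred cells and the substrate. Biotin-LPETG (300 nmol per footpad) followed at 46 hours after the T cells, and popliteal nodes were taken at 48 hours. The Cd40-null group (2 libraries) came from Cd40-/- mice. Their transferred DCs and their OT-II T cells were both wild-type, so that genotype and transferred cells both differ from the other groups and cannot be told apart. The sorted cells were high in MHC class II, CD11c intermediate and CD11b+, and the protocol adds that they lacked XCR1. The age of the mice is not given in the sources used here, nor is it stated which libraries come from separate animals. The p-values therefore reflect variation among libraries only, which may be technical.

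Lysosomes are acidic compartments in which soluble hydrolases break down glycans, lipids and proteins. Many of these enzymes need small activator proteins to reach lipid substrates, and the products leave through carriers in a heavily glycosylated membrane. In DCs the same compartments process captured antigen for MHC class II, and lysosomal activity is known to change as DCs mature. The transcription factor TFEB and its relatives bind an E-box, CACGTG, within a longer motif called CLEAR near the start of many lysosomal genes.

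Promoters are shown for 3 members with this E-box and 3 that fell in biotin-positive DCs and lack it. Of the 39 genes, 34 had a promoter in the RefSeq table (GRCm38.p6, from 250 bases before to 50 after a start site). CACGTG, which reads the same on both strands, was found in 9 of these 34 genes (26.5%): Arsa, Cln3, Gaa, Gla, Glb1, Lamp1, Mcoln1, Naglu and Sgsh. The share was 8.09% of the 27025 genes in the table, and 7.15% of its 32851 windows. The longer TCACGTGA, which contains the E-box, was in 3 members (Cln3, Gla and Mcoln1) and in 1.12% of genes, and the 10-base CLEAR palindrome was in Cln3 only among the 34. None of the 8 members called in any comparison below held CACGTG in this window, against 9 of the 26 uncalled ones. This contrast rests on few genes, uses calls from the same data and was not tested. A match is a description of the letters, not evidence of binding. The stretches below lie upstream of the start site outside annotated exons, run 5′ to 3′ on the gene's strand, and carry each CACGTG in capitals. They are Lamp1 (chr8:13159041-13159160, plus strand, with 4 E-boxes), Glb1 (chr9:114400956-114401075, plus), Mcoln1 (chr8:3500337-3500456, plus), Psap (chr10:60277507-60277626, plus), Npc2 (chr12:84773153-84773250, minus) and Naaa (chr5:92278182-92278301, minus). The Mcoln1 stretch ends before another CACGTG of that gene, at -45 from the start site, which is the one within TCACGTGA.
Lamp1: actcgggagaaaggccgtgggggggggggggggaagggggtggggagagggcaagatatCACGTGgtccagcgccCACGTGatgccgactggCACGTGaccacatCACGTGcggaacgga
Glb1: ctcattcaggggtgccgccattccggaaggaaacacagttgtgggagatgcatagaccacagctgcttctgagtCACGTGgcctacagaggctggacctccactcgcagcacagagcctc
Mcoln1: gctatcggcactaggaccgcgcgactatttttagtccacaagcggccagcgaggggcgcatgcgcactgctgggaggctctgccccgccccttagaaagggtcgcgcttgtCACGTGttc
Psap: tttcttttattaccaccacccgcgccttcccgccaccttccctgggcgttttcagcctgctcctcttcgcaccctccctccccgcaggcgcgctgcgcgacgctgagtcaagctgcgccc
Npc2: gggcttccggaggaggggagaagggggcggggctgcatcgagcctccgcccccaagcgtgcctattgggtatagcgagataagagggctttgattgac
Naaa: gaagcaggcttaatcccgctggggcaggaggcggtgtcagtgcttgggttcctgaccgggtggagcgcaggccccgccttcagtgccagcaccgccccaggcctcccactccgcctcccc

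Levels below are TMM-scaled CPM, that is, counts brought to a common library size after TMM (trimmed mean of M-values) factors. A gene was called where edgeR's quasi-likelihood test gave a Benjamini-Hochberg adjusted p under 0.05 over all 14217 genes, and every adjusted p below is from that test unless another is named. Library totals ran from 14518099 to 33260704 counts. Biotin-negative libraries had more genes detected (14225 to 15742) than biotin-positive (13090 to 13455) or Cd40-null libraries (13113 to 13596). Cd40 was at 852 to 1309 CPM in biotin-positive, 386 to 598 in biotin-negative, and 74.2 and 53.3 CPM in Cd40-null libraries. The share of counts on the ribosomal RNA gene Rn45s also differed, at 15.05 to 19.5% in biotin-positive and 19.6 to 21.5% in biotin-negative libraries, with 18.3 and 20.7% in the Cd40-null pair. All 8 dendritic cell markers checked were detected in every library, but their levels were not alike. Between the biotin groups, Itgax, H2-Aa and Cd74 were lower in biotin-positive libraries (2.5-, 4.01- and 2.98-fold) and Ccl22 and Fscn1 higher (2.93- and 2.25-fold), while Flt3, Zbtb46 and Ccr7 were not called. The summed level of the 8 was 16493 to 20858 CPM in the biotin-positive group and 12978 to 15112 CPM in the biotin-negative group. The part of these differences in the lysosomal results was not tested. In bulk libraries, fewer cells of a type and less RNA per cell cannot be told apart.

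In biotin-positive compared with biotin-negative DCs, a comparison of DCs that were or were not marked by CD40L-bearing T cells, 6 of the 39 lysosomal genes fell: Arsb, Psap, Npc2, Laptm5, Naaa and Gm2a. Grn was the 1 gene that rose. The other 32 were not called. Over all genes tested, 4.05% were called lower and 3.7% higher, beside 15.4% and 2.56% of the 39. The median log2 fold change of the 39 was -0.23, against -0.03 over all genes. At an unadjusted p under 0.05 there were 13 of the 39, beside 21.1% of all genes. The 2 groups did not overlap for Arsb, Psap, Npc2, Naaa and Laptm5, which were lower in every biotin-positive library, and for Grn, which was higher in every one. Among all genes, 2.41% had every biotin-positive library below and 2.6% every one above. All 7 calls were kept when any 1 library was left out. With detected genes per library as a covariate, which cannot be told apart from the biotin groups, edgeR called 0 genes of any kind, and the 7 genes kept their direction (Npc2 had the smallest adjusted p of them, 0.0907).

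**Figure D1:**
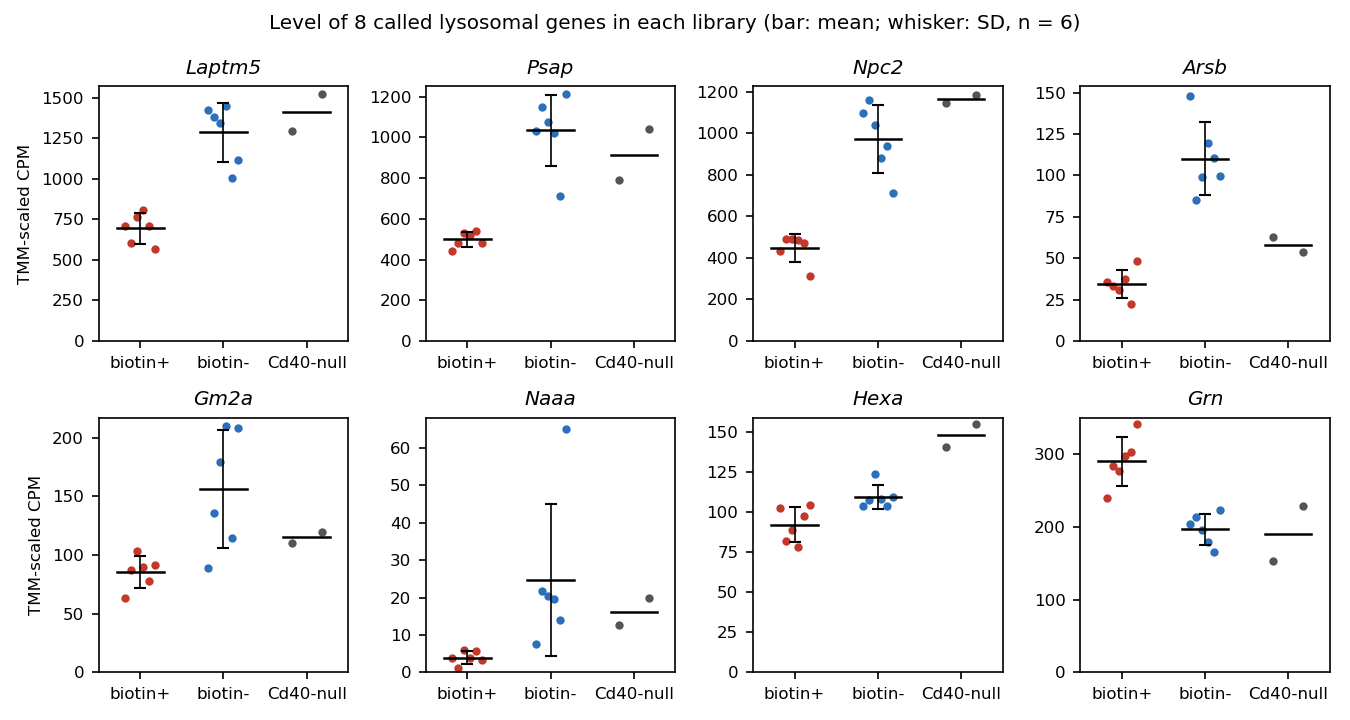
TMM-scaled CPM (y axis, from 0) of 8 lysosomal genes in each biotin-positive, biotin-negative and Cd40-null library (points), with the mean (bar) and, for groups of 6, the SD (whisker). Psap, Npc2, Laptm5, Arsb and Naaa sit lower in every biotin-positive library than in any biotin-negative one, and Grn sits higher.

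Among 8 enzymes that degrade glycosaminoglycans, the sulfated sugar chains of proteoglycans, 1 fell and 7 were not called. The one that fell was Arsb (chr13:93771630-93943016, plus strand of mm10, 8 exons), which encodes arylsulfatase B and removes sulfate from dermatan and chondroitin sulfate. Its level ran from 22.6 to 48.4 CPM (median 34.2) in biotin-positive libraries and from 84.9 to 148 CPM (median 105) in biotin-negative ones, and it was 62.9 and 53.4 CPM in the Cd40-null pair. No group overlapped another, and the Cd40-null values lay between the biotin groups. The log2 fold change between the biotin groups was -1.67 (SE 0.177, adjusted p = 1.97e-05, 3.19-fold lower). In the GENCODE annotation, 59.7% of the exonic bases of Arsb are shared with opposite-strand genes, Gm26527 and Gm47210, and the strand used in counting is not given in the sources used here.

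The remaining 7 of that set (Galns, Ids, Idua, Gusb, Naglu, Sgsh and Hgsnat) had log2 fold changes from -0.38 (Sgsh) to 0.18 (Naglu). Gusb, the beta-glucuronidase used as a lysosomal marker enzyme, was at 153 ± 34.5 CPM in the biotin-positive group and 149 ± 19.2 CPM in the biotin-negative group (SD, n = 6 each). Galns, a sulfatase for keratan sulfate, was near the low end of the set, at 2.29 to 11.9 CPM in the biotin-positive group and 0 to 8.6 CPM in the biotin-negative group.

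Among 8 genes of sphingolipid and glycolipid breakdown, 2 fell, both of them activator proteins without enzyme activity of their own, and 6 enzymes were not called. A difference between activators and enzymes was not tested. Psap (chr10:60277627-60302597, plus strand, 15 exons) encodes prosaposin, which is cut into the saposins that present sphingolipids to their hydrolases. It ran from 440.1 to 539.6 CPM (median 503) in biotin-positive libraries, from 713 to 1214 CPM (median 1054) in biotin-negative ones, and was 791 and 1040 CPM in Cd40-null ones. Every biotin-positive library was thus lower than every other library. The log2 fold change against the biotin-negative group was -1.05 (SE 0.114, adjusted p = 2.35e-05).

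Gm2a encodes the GM2 activator, which lifts ganglioside GM2 out of the membrane for hexosaminidase A. It ran from 63.1 to 104 CPM (median 88.7) in biotin-positive and from 89.2 to 209.8 CPM (median 158) in biotin-negative libraries, and was 110 and 119.9 CPM in Cd40-null ones. The biotin groups overlapped through 1 library, biotin-negative replicate 1 at 89.2 CPM. The log2 fold change was -0.87 (SE 0.191, adjusted p = 8.66e-03).

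Hexa, the alpha subunit of that hexosaminidase, ran from 78.1 to 104 CPM in the biotin-positive group and from 104 to 124 CPM in the biotin-negative group. It was not called between them (log2 -0.25, edgeR unadjusted p = 0.0285, adjusted p = 0.171). The lysosomal ceramidase gene Asah1 was at 166 ± 35 and 169.6 ± 16.8 CPM (SD, n = 6 each). The other enzymes, Arsa, Gla, Glb1 and Smpd1, had log2 fold changes from -0.22 (Glb1) to 0.42 (Smpd1).

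None of 6 glycoprotein and glycogen enzymes was called by edgeR, and 2 of them, Manba and Gaa, had an unadjusted p under 0.05. Their log2 fold changes ran from -0.57 for Manba, the beta-mannosidase, to 0.36 for Gaa, the acid alpha-glucosidase that degrades glycogen. Manba was at 26.1 ± 7.14 CPM in the biotin-positive group and 38.8 ± 9.81 CPM in the biotin-negative group (SD, n = 6 each; adjusted p = 0.13). Gaa was at 216 ± 32.6 and 169 ± 24.0 CPM (SD, n = 6 each; adjusted p = 0.128).

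Of 4 genes of lipid hydrolysis and cholesterol export, 2 fell and 2 were not called. Npc2 (chr12:84754562-84773152, minus strand, 4 exons) encodes the soluble carrier that hands cholesterol to NPC1 in the lysosomal membrane. It ran from 314 to 490.4 CPM (median 478) in biotin-positive libraries, from 713 to 1161 CPM (median 989.8) in biotin-negative ones, and was 1146 and 1185 CPM in Cd40-null ones. Both latter groups were higher than every biotin-positive library, with a log2 fold change of -1.12 against biotin-negative (SE 0.125, adjusted p = 3.15e-05). Its partner Npc1 was at 16.5 ± 4.75 and 21.9 ± 7.39 CPM (SD, n = 6 each; adjusted p = 0.491).

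Naaa (chr5:92257659-92278170, minus strand, 11 exons) encodes the acid amidase that hydrolyses N-acylethanolamines such as palmitoylethanolamide. It ran from 1.2 to 5.92 CPM (median 3.93) in biotin-positive libraries, from 7.57 to 64.9 CPM (median 20.1) in biotin-negative ones, and was 12.8 and 19.8 CPM in Cd40-null ones. The biotin groups did not overlap, although the lowest biotin-negative library was close to the highest biotin-positive one. The log2 fold change of -2.64 (SE 0.477, adjusted p = 2.10e-03) was the largest in size among the 39. Lipa, the acid lipase that frees cholesterol from its esters, was at 25.3 ± 7.59 and 35.8 ± 7.19 CPM (SD, n = 6 each; adjusted p = 0.18).

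Among 4 other storage-disease genes, Grn rose and Tpp1, Ppt1 and Cln3 were not called. Grn (chr11:102430315-102437048, plus strand, 13 exons) encodes progranulin, a secreted and lysosomal precursor of the granulins. It ran from 239 to 341 CPM (median 291) in biotin-positive libraries, from 165 to 223 CPM (median 200.1) in biotin-negative ones, and was 154 and 228 CPM in Cd40-null ones. Every biotin-positive library was the higher, with a log2 fold change of 0.56 (SE 0.115, adjusted p = 5.35e-03). Ppt1, a palmitoyl thioesterase, was at 48.7 ± 10.4 and 68.5 ± 14.2 CPM (SD, n = 6 each) and had the smallest adjusted p of the uncalled members, 0.1.

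Of 9 membrane proteins, transporters and regulators, Laptm5 fell and 8 were not called. Laptm5 (chr4:130913125-130936141, plus strand, 8 exons) encodes a lysosomal membrane protein of blood cells that takes part in turnover of antigen receptors. It ran from 565 to 809 CPM (median 708) in biotin-positive libraries, from 1004 to 1445 CPM (median 1362) in biotin-negative ones, and was 1297 and 1524 CPM in Cd40-null ones. No biotin-positive library reached the other groups, and the log2 fold change was -0.89 (SE 0.109, adjusted p = 7.05e-05). Its relative Laptm4a was at 72.9 ± 9.63 and 94.4 ± 24.9 CPM (SD, n = 6 each) and was not called. Lamp2, a major glycoprotein of the lysosomal membrane, was at 126 ± 23.4 and 144 ± 12.3 CPM (SD, n = 6 each). Tcirg1, a subunit of the proton pump, and Mcoln1, a calcium channel, had log2 fold changes of -0.23 and 0.15. Tfeb was low in all libraries, at 5.41 to 15.8 CPM in the biotin-positive group and 2.04 to 12.1 CPM in the biotin-negative one (log2 0.61, SE 0.461).

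**Figure D2:**
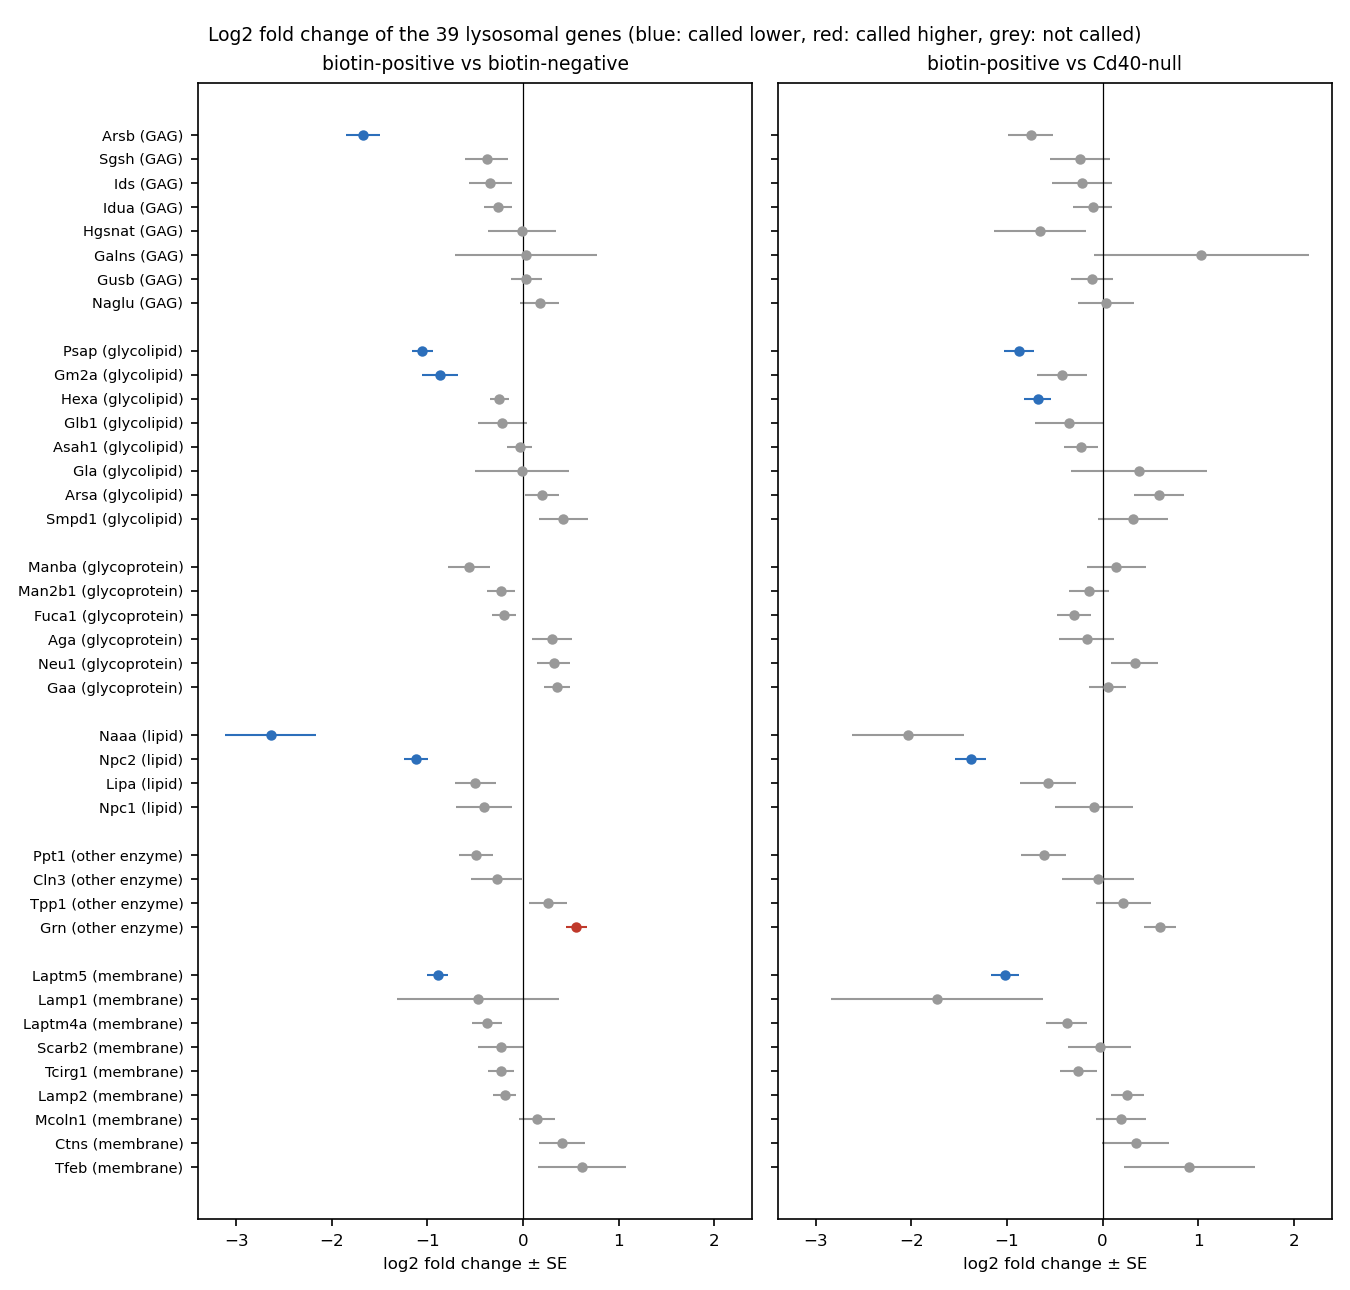
Log2 fold change (x axis, with SE as bar) of all 39 genes, grouped by role on the y axis, for biotin-positive against biotin-negative (left) and against Cd40-null libraries (right). Blue marks genes called lower, red called higher and grey not called; 6 are blue and 1 red on the left, and 4 are blue on the right.

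Of the 32 uncalled genes, 30 had a log2 fold change within 0.5 of 0. A missed threshold does not show equal levels, and the SE of these genes reached 0.85 for Lamp1.

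Lamp1, the other major membrane glycoprotein, varied most of the 39 within both biotin groups. Biotin-positive replicates 1 to 6 were at 706, 259, 62.4, 44.3, 59.2 and 119.5 CPM. Biotin-negative replicates 1 to 6 were at 89.6, 72.5, 79.9, 117, 355 and 1019.8 CPM. The Cd40-null pair was at 1252 and 136 CPM. Each group thus held 1 library or more far above the rest, and the highest was 15.9, 14.1 and 9.18 times the lowest in the 3 groups. The coefficient of variation of Lamp1 was 123% over biotin-positive libraries and 129% over biotin-negative ones, against a median over the 39 genes of 21.1% and 21.4%.

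The 3 genes with the highest mean level per transcript length, Laptm5, Psap and Npc2, were all among those that fell. Their summed level was 1359 to 1815 CPM in biotin-positive, 2655 to 3692 CPM in biotin-negative and 3234 and 3748 CPM in Cd40-null libraries. They made up 33.2 to 41.0% of the summed level of all 39 genes in the biotin-positive group and 45.6 to 56.7% in the biotin-negative group. Without these 3 and Lamp1, the sum of the other 35 was 2469 ± 175 CPM in the biotin-positive group and 2651 ± 80.4 CPM in the biotin-negative group (SD, n = 6 each). The ranges of that sum, 2159 to 2612 and 2514 to 2747 CPM, overlapped. These sums describe genes already named above and were not tested.

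**Figure D3:**
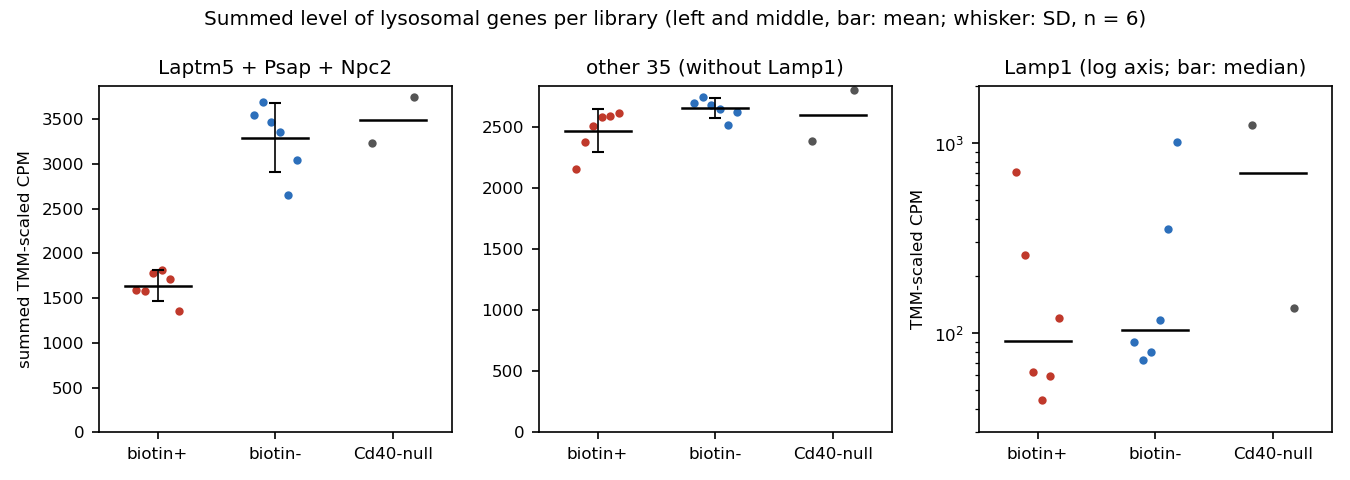
Summed TMM-scaled CPM per library of Laptm5, Psap and Npc2 (left) and of the other 35 genes without Lamp1 (middle), both from 0, and the level of Lamp1 on a log axis (right). The 3-gene sum separates the biotin groups (1359 to 1815 against 2655 to 3692 CPM), the 35-gene sum overlaps, and Lamp1 spreads widely in each group.

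Compared per kilobase of the longest coding transcript, Laptm5 led in all 3 groups, with 267 ± 36.0 CPM per kb in biotin-positive and 494 ± 69.6 CPM per kb in biotin-negative libraries (SD, n = 6 each). By mean in the biotin groups, Psap followed with 188 ± 14.2 and 389 ± 65.5 CPM per kb, and Npc2 with 136 ± 20.8 and 295 ± 49.3 CPM per kb. Grn came next in biotin-positive libraries at 124 ± 14.3 CPM per kb, close to Npc2, whose lowest library was at 95.1. In the Cd40-null pair the mean of Npc2 (353 CPM per kb) was above that of Psap (344 CPM per kb). Lamp1 ranked 4 by mean in biotin-negative and Cd40-null libraries. Its highest biotin-positive library (317 CPM per kb) was above the highest of Laptm5 (311 CPM per kb). Naaa ranked 39 of 39 in biotin-positive libraries (1.64 ± 0.718 CPM per kb) and 27 in biotin-negative ones (10.3 ± 8.44 CPM per kb). Gla, Galns, Tfeb and Npc1 were at the low end in each group, with overlapping ranges.

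**Figure D4:**
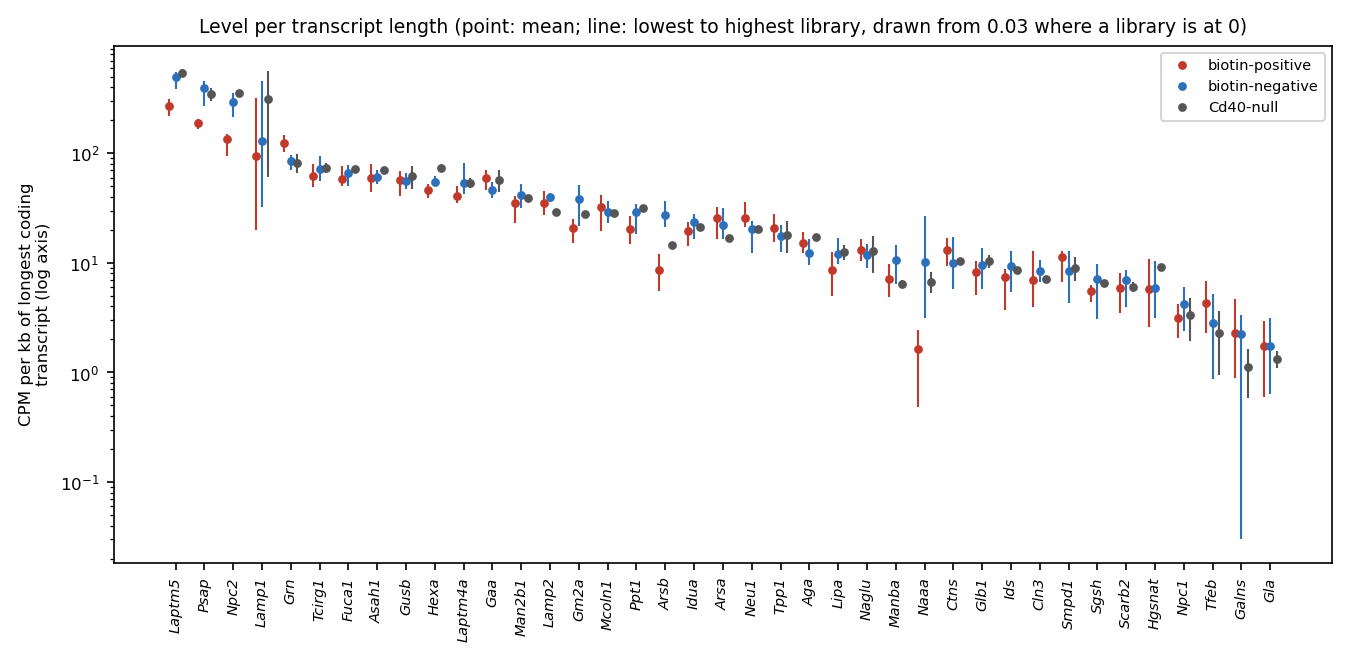
CPM per kb of the longest coding transcript (y axis, log) for each of the 39 genes (x axis) in the 3 groups, as mean (point) and lowest to highest library (line). Laptm5, Psap and Npc2 are at the left with the highest means, and Naaa in biotin-positive libraries has the lowest mean among the biotin-positive ones, 1.64 CPM per kb.

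Against DCs that lack CD40, 4 of the 39 genes were lower in biotin-positive DCs and none was called higher by edgeR, beside 1.05% and 1.22% of all genes. At an unadjusted p under 0.05 there were 9 of the 39 in either direction, beside 13.8% of all genes, and DESeq2 and limma voom each called 1 member higher, Grn. With 2 Cd40-null libraries, and with the biotin-positive libraries shared with the comparison above, these values are not independent of it. Npc2 had a log2 fold change of -1.38 (SE 0.163, adjusted p = 0.000244) and Laptm5 of -1.02 (SE 0.146, adjusted p = 0.00123). For Psap it was -0.88 (SE 0.152, adjusted p = 0.00492), and the call was lost without Cd40-null replicate 2, with the replicate block and with the marker covariate described below. Hexa, at 140.3 and 155 CPM in the Cd40-null pair, was also lower in biotin-positive DCs (log2 -0.68, SE 0.14, adjusted p = 0.0157), a call lost without either Cd40-null library, with the block and with that covariate. Grn (log2 0.61, adjusted p = 0.0716), Naaa (log2 -2.03, adjusted p = 0.0836) and Arsb (log2 -0.75, adjusted p = 0.119) were not called by edgeR. Naaa was called lower by DESeq2 (adjusted p = 0.0346) and, in edgeR, without biotin-negative replicate 6 (adjusted p = 0.0399). The median log2 fold change of the 39 was -0.14, against 0.04 over all genes.

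Between biotin-negative and Cd40-null DCs, none of the 39 genes was called by edgeR, where 0.274% of all genes were called higher and 0.0422% lower. At an unadjusted p under 0.05 there were 4 (Arsb, Hexa, Manba and Lamp2), beside 9.22% of all genes. Arsb, at 84.9 to 148 CPM against 62.9 and 53.4 CPM, had a log2 fold change of 0.92 (edgeR adjusted p = 0.203); DESeq2 called it higher (adjusted p = 0.0265), and limma voom called no member. Hexa was lower in every biotin-negative library than in either Cd40-null one (log2 -0.43), while Arsb and Lamp2 (log2 0.45) were higher in every one. The share of all genes separated in this way was not counted for this comparison. The median log2 fold change of the 39 was 0.01, against 0.06 over all genes.

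Markers of monocytes and macrophages also differed between the biotin groups. Of 15 such markers in the table, 9 were lower in biotin-positive than in biotin-negative libraries and none higher, beside 4.05% and 3.7% of all genes. Against Cd40-null libraries, edgeR called none of the 15 for either biotin group. For biotin-positive against Cd40-null libraries, 4 of them had an unadjusted p under 0.05 in edgeR, beside 13.8% of all genes. For biotin-negative against Cd40-null libraries there were 5, beside 9.22% of all genes. In that comparison 13 of the 15 log2 fold changes were positive, with a median of 2.64. The summed level of the 15 markers was 139 to 309 CPM in biotin-positive, 269 to 1362 CPM in biotin-negative and 375 and 595 CPM in Cd40-null libraries. Mrc1, the mannose receptor gene, was at 0 in all 6 biotin-positive libraries, in both Cd40-null libraries and in 1 biotin-negative library. Cd163 and Ccr2 were higher in every biotin-negative library (at least 10.9 and 0.857 CPM) than in any biotin-positive one (at most 1.58 and 0.394 CPM). For Lyz2 and Csf1r the ranges of the biotin groups overlapped. Biotin-negative replicate 1 was picked after the values were seen because its marker sum of 269 CPM lies inside the biotin-positive range. That holds for the sum and not for each marker. This library had Arsb at 148, Psap at 1031, Npc2 at 1097 and Laptm5 at 1421 CPM, outside the biotin-positive ranges. In the same library Gm2a was at 89.2 CPM, inside the biotin-positive range. Naaa, at 7.57 CPM, was above its biotin-positive range (up to 5.92 CPM), and Grn, at 204 CPM, was below its own (from 239 CPM). With the marker level as a covariate, added after the data were seen, Arsb (log2 -1.84, adjusted p = 0.00289), Npc2 (-1.36, adjusted p = 0.00289), Psap (-0.91, adjusted p = 0.0226) and Laptm5 (-0.90, adjusted p = 0.0221) were called. Gm2a (-0.12, adjusted p = 0.935), Naaa (-1.18, adjusted p = 0.571) and Grn (0.58, adjusted p = 0.193) were not. The marker sums of the biotin groups overlapped only through biotin-negative replicate 1, so this fit can hardly tell marker level from group. A call kept or lost in it, or in that 1 library, does not settle the part of these markers. That part was not tested. Langerhans cell markers summed to 215 to 293 CPM in the biotin-positive group and 30.6 to 105 CPM in the biotin-negative group, type 2 conventional DC markers to 105 to 227 and 299 to 521 CPM, and plasmacytoid DC markers to 80.6 to 198 and 229.6 to 532 CPM. Of the plasmacytoid markers, Spib was called, 3.9-fold lower in biotin-positive libraries, and the other 4 were not. The part of these 3 lists in the lysosomal results was not tested.

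**Figure D5:**
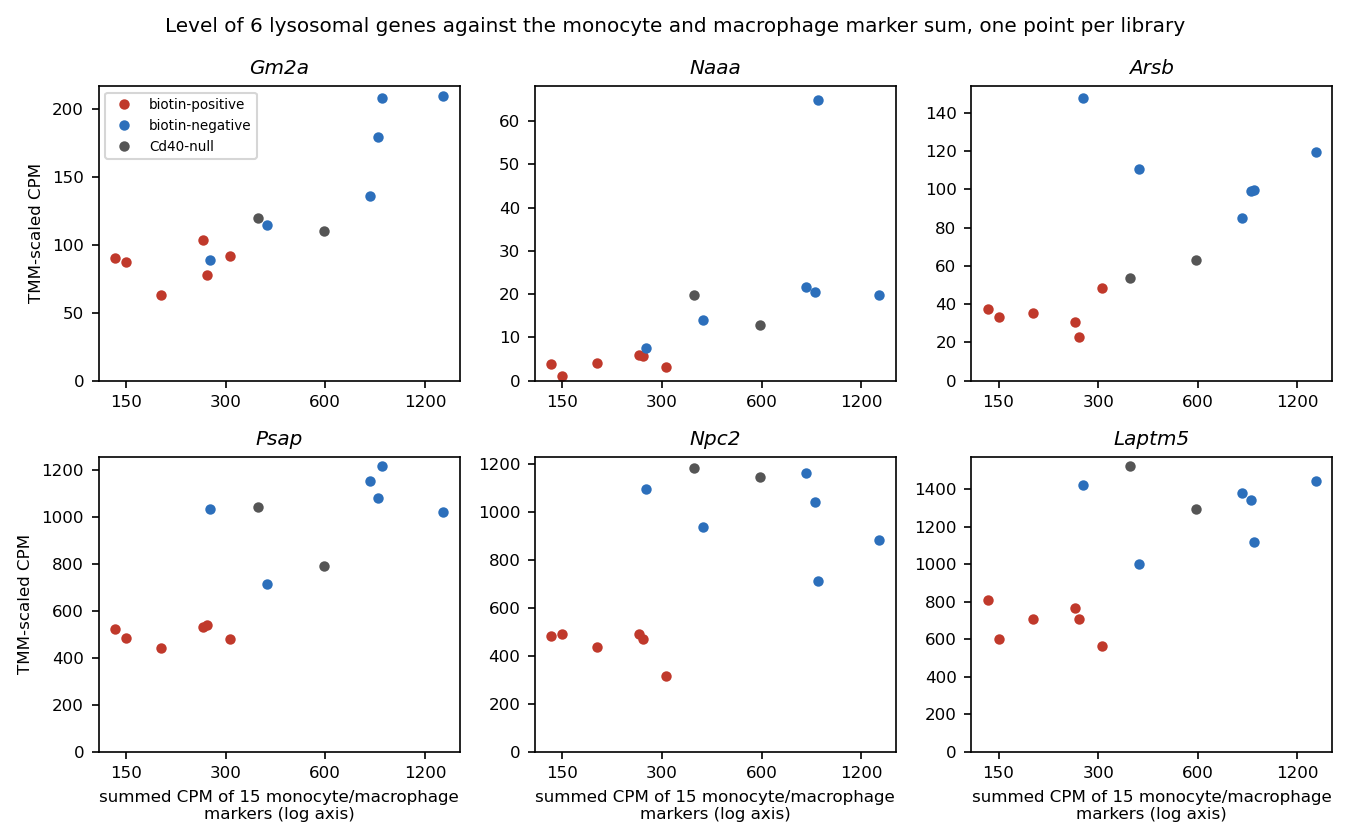
TMM-scaled CPM of 6 lysosomal genes (y axis, from 0) against the summed CPM of 15 monocyte and macrophage markers (x axis, log), with 1 point per library coloured by group. Biotin-negative replicate 1, at a marker sum of 269 CPM, lies among the biotin-positive libraries for Gm2a and far above them for Arsb, Psap, Npc2 and Laptm5.

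Other genes of the lysosomal system were counted by list for biotin-positive against biotin-negative DCs. Over all genes tested, 3.7% were called higher and 4.05% lower, so 1 call in a list is given as a gene and not as a result about the list. Of 17 tested subunits of the V-ATPase, the pump that acidifies lysosomes, 1 rose and 16 were not called. That was Atp6v1a, at 293 ± 32.8 against 198 ± 35.6 CPM (SD, n = 6 each; log2 0.57, adjusted p = 0.00638). Of 10 genes that target or activate lysosomal enzymes, 1 fell, the mannose-6-phosphate receptor gene M6pr (326 ± 31.2 against 437 ± 43.0 CPM, SD, n = 6 each; adjusted p = 0.00674). Of 16 genes of TFEB-family factors and of mTORC1 control at the lysosome, 1 rose: Tfe3, a relative of Tfeb, at 115 ± 22 against 70.1 ± 11.6 CPM (SD, n = 6 each; log2 0.72, adjusted p = 0.00624).

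Of 19 other hydrolases, 4 fell and none rose. Pld4, an endolysosomal exonuclease, was at 9.49 ± 6.25 against 104 ± 19.5 CPM (SD, n = 6 each; log2 -3.46, adjusted p = 3.15e-05), and Acp5, the tartrate-resistant acid phosphatase, at 4.95 ± 2.56 against 26.4 ± 10.3 CPM (adjusted p = 0.000611 in edgeR). Prcp (log2 -0.37, adjusted p = 0.0109) and Ggh (log2 -0.80, adjusted p = 0.0336) also fell, and Ggh kept its call in 14 of 25 alternative settings. Of 21 other membrane proteins tested, 2 rose and 2 fell. Laptm4b, a relative of Laptm5, rose from 56.7 ± 5.44 to 139 ± 25.3 CPM (SD, n = 6 each; log2 1.29, adjusted p = 1.97e-05), the opposite direction to Laptm5. Slc11a1, the metal transporter of phagosomes, fell (log2 -3.64, adjusted p = 0.003). Lamp3 had 0 counts in all 6 biotin-positive libraries and a mean of 1.78 CPM in biotin-negative ones. With a floor of 3 counts over the biotin-positive group, it was at least 68.3-fold lower than that mean. Biotin-negative libraries ran from 0.07 CPM (2 counts, replicate 1) to 4.39 CPM (86 counts, replicate 5), so the bound holds for the mean only. With the monocyte and macrophage marker level as a covariate, Laptm4b, Pld4 and Acp5 were called, and Atp6v1a, M6pr, Tfe3, Prcp, Ggh, Slc11a1 and Lamp3 were not.

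Against Cd40-null libraries, Pld4 (log2 -2.73, adjusted p = 0.00343), Prcp (log2 -0.72, adjusted p = 0.00224) and Lamp3 (at least 59.5-fold, edgeR adjusted p = 0.0338) were lower in biotin-positive DCs. Laptm4b (log2 1.06, adjusted p = 0.00926) was higher, a call lost without Cd40-null replicate 1. Laptm4b was called in 22 of 25 alternative settings and Lamp3 in 16 of 24, and Prcp was lost without Cd40-null replicate 2. No gene of the 5 lists was called between biotin-negative and Cd40-null libraries by edgeR. In that test 4 of them had an unadjusted p under 0.05, beside 9.22% of all genes. DESeq2 called 1 gene, of the TFEB-family and mTORC1 list, higher.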

How the data were processed

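Expected counts per gene (whole numbers in the table) were deposited by the authors for 14 libraries; per the submitters' processing notes the build was mm10 and the tools included RSEM 1.2.8, Bowtie2 2.1.0 and DESeq2 1.16.0. A second table deposited by the authors holds a normalized signal for 10321 genes, equal from the values to the count divided by 1 factor per library. The gene annotation and strand used in counting are not given in the sources used here. Reads were paired, of 38 bases.

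The counts were rounded and fitted in R 4.3.3 with edgeR 4.0.16: filterByExpr by group (min.count 10), TMM factors, all 14 libraries in 1 robust quasi-likelihood fit with a group factor, two-sided tests of 3 comparisons, Benjamini-Hochberg adjustment over 14217 genes, threshold 0.05. Each standard error (SE) was obtained as the size of the log2 fold change over the root of the F statistic. Groups came from the sample labels. The members and gene lists were chosen with earlier results of these data known. All 39 members are reported, and the genes named from each other list are those called, except that some items are not reported here. Lengths and positions are from GENCODE for GRCm38 (mm10), 1-based. Alternatives used limma 3.58.1, DESeq2 1.42.0 and other settings. The fit was tested on simulated counts. Reads carry no molecular identifiers, so floors cover counting error only.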

Additional observations from a re-analysis of the deposited data

Results flagged for a closer look

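Within the 2 groups of 6 libraries, 9 of 80 gene-by-group sets (the 39 genes and Cd40 in each group; 11.2%) held a library far from the others by Dixon's test, where chance gives about 5%. In biotin-positive libraries these were Lamp1 in replicate 1 (706 CPM, next 259), Neu1 in replicate 4 (88.5 CPM, next 63.2), Npc2 in replicate 6 (314 CPM, low, next 436) and Smpd1 in replicate 2 (16.3 CPM, low, next 28.5). In biotin-negative libraries they were Lamp1 (1019.8 CPM, next 355), Naaa (64.9 CPM, next 21.7) and Lipa (49.8 CPM, next 35.8), all in replicate 6, with Hexa in replicate 3 (124 CPM, next 109) and Laptm4a in replicate 2 (143 CPM, next 95.1). The low Npc2 value lies on the side of the difference between the biotin groups, and the call was kept without that library.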

How the results depend on the processing

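Results were recomputed under 25 alternatives, 14 of which left out 1 library each; among the 11 calls of the 39 genes (7 between the biotin groups and 4 against Cd40-null), no direction reversed. Between the biotin groups, the 7 calls among the 39 genes were kept in all 14 of these. With detected genes per library as a covariate, whose values do not overlap between the biotin groups and cannot be told apart from group, 0 genes were called at all (1102 otherwise), so 0 members higher and 0 lower. The marker covariate left 187 genes, with 4 members lower and 0 higher. Ppt1 was called lower without biotin-negative replicate 4 (adjusted p = 0.0314).

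For biotin-positive against Cd40-null libraries (323 genes called), DESeq2 gave 790, limma voom 606, the replicate block 129 and the marker covariate 138; leaving out 1 library gave 78 to 346, the lowest 2 being 78 without Cd40-null replicate 1 and 95 without replicate 2. Members lower were 2 with the replicate block, 2 with the marker covariate and 2 to 5 with 1 library left out. Members higher were 1 (Grn) with DESeq2, limma voom and limma on the deposited signal. For biotin-negative against Cd40-null libraries (45 genes), DESeq2 gave 266, the 2 groups alone 29, the replicate block 19, the detected-genes covariate 4, limma on the deposited signal 81 and leaving out 1 library 12 to 54 (21 without Cd40-null replicate 1, 12 without replicate 2). DESeq2 called 1 member higher, Arsb. Where 1 Cd40-null library was left, it is assumed to vary like the other groups. The cause of these shifts was not tested.

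The replicate numbers are not said to pair libraries, so they are not taken as a pairing. Same-numbered biotin libraries did not deviate together over all tested genes (correlations -0.0226 to 0.0132). This cannot show that they are unpaired, because a shared effect may be small beside the variation of single libraries. With the replicate block, 891 genes were called between the biotin groups, with 6 members lower and 1 higher.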
